A study of Mus musculus with 18 samples.

Results

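Cartilage matrix genes other than collagens were examined for binding sites of 2 limb transcription factors, Pitx1 in hindlimb buds and Tbx5 in forelimb buds. The set has 10 members among 21887 protein-coding genes, namely Acan, Matn1, Matn3, Matn4, Comp, Hapln1, Snorc, Scrg1, Vcan and Prg4. Its sites are the peak summits, the highest points of chromatin immunoprecipitation sequencing (ChIP-seq) peaks, whose nearest protein-coding gene within 100 kb was a member. Positions are on genome build mm10. By this rule 37 of 54941 Pitx1 summits and 3 of 10273 Tbx5 summits belonged to the set. The Pitx1 sample came from hindlimb buds at e11.5 and the Tbx5 sample from forelimb buds at e10.5, both of wild-type mouse embryos of the outbred strain CD1. Each was pulled down with a homemade antibody and deposited as 1 sample with no replicate. No value below therefore has a replicate error and no test between the samples was possible. Factor, limb and stage differ together and cannot be told apart. Peak lists hold no expression values, so the labelled tissues could not be checked against marker genes here.

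Cartilage of the limb skeleton is built from mesenchyme that condenses inside the bud and then fills its surroundings with a hydrated matrix. Large proteoglycans bind chains of hyaluronan, link protein fastens them there, and smaller adaptor proteins tie them to collagen fibrils. Versican, the product of Vcan, is an early proteoglycan of the condensing mesenchyme, while aggrecan, the product of Acan, is typical of differentiated cartilage. The DNA of a whole limb bud mixes many cell types, so a site used in fewer cells and a site bound more weakly in each cell cannot be told apart.

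Pitx1 summits were found at most of these genes, and Tbx5 summits at about the same share of them as of all genes. Pitx1 summits were assigned to 8 of the 10 members, against 55.1% of all protein-coding genes. Tbx5 summits were assigned to 2 of the 10, Prg4 and Scrg1, against 18.8% of all genes. The same 2 genes carried both factors, against 16.9% of all genes. Acan and Snorc had no summit of either factor. Counting summits for every gene within 100 kb, and not only the nearest, 9 of the 10 had a Pitx1 summit, against 85.4% of all genes, and 6 of the 10 a Tbx5 summit, against 48.2%. Read depth is unknown and the Pitx1 list is the longer one, so the counts of the 2 factors are not a measure of relative binding.

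The Pitx1 summits were spread unevenly, with 17 of the 37 at Vcan. Scrg1 held 6, Matn1, Matn3 and Matn4 held 3 each, Hapln1 and Prg4 held 2 each and Comp held 1. The median member had 2.5 Pitx1 summits, against 1 for all genes. Long genes with distant neighbours collect more summits, so counts were also set against the assignment domain, which reaches from a gene to the middle of each gap beside it and at most 100 kb out. The median domain was 77.9 kb for the members and 45.8 kb for all genes. The shares of genes with a summit and the medians above are not matched for this length. The members together had 4.34 Pitx1 summits per 100 kb of domain, against 2.37 over all genes. Without Vcan this fell to 2.90. The Tbx5 density was 0.352 per 100 kb at the members and 0.414 over all genes.

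**Figure D1:**
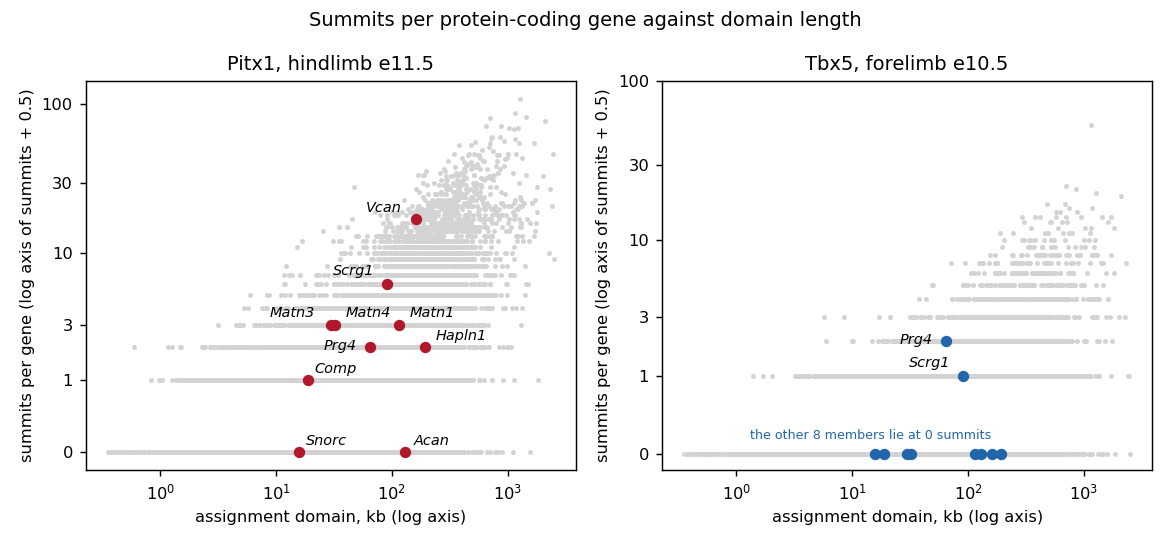
Number of summits assigned to each protein-coding gene (vertical, log axis of summits + 0.5) against the length of its assignment domain in kb (horizontal, log axis), for Pitx1 on the left and Tbx5 on the right. Grey points are all 21887 genes and coloured points the 10 members; Vcan, with 17 Pitx1 summits in 162 kb, lies near the upper edge of the cloud, and 8 members lie at 0 Tbx5 summits.

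Summit scores of the set, in the authors' −log10 q, covered a wide range. The 37 Pitx1 scores had a median of 5.37 and quartiles of 3.35 and 20.5, against a median of 7.07 and quartiles of 3.83 and 15.1 in the whole list. Of the 37, 16 reached the median of the list, or 43.2% (exact Clopper-Pearson 95% interval 27.1 to 60.5, covering the counting of summits only). The highest was 54.4 at Vcan and the lowest 1.64 at Comp, in a list that runs up to 769. Inside genes lay 23 of the 37, or 62.2% (44.8 to 77.5), against 60.6% of all Pitx1 summits within 100 kb of a gene.

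A second deposited Pitx1 list holds 32.4% of the longer one and keeps mainly its high scores. It held 14 of the 37 summits, or 37.8% (exact interval 22.5 to 55.2). Of summits with scores from 15.1 upward it held 10 of the 12 at members, against 76.4% in the whole list. From 3.83 up to 15.1 it held 3 of 15 at members, against 20.9%, and below 3.83 it held 1 of 10, against 5.93%. Of the 14, 8 were at Vcan, 2 each at Matn3 and Scrg1 and 1 each at Matn4 and Prg4. None of the summits at Hapln1, Matn1 and Comp was in it.

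**Figure D2:**
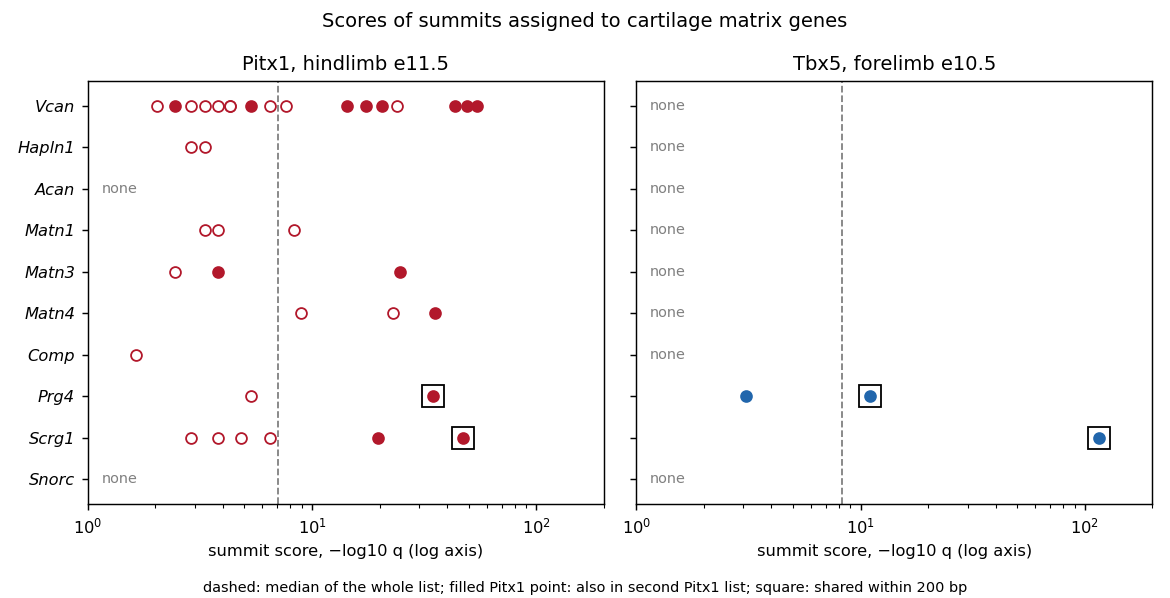
Score of every summit assigned to the 10 genes (horizontal, −log10 q, log axis), 1 row per gene, with Pitx1 on the left and Tbx5 on the right; the dashed line is the median of each whole list, filled Pitx1 points are also in the second Pitx1 list, and squares mark summits shared within 200 bp. Vcan holds 17 Pitx1 scores between 2.03 and 54.4, and Prg4 and Scrg1 alone hold Tbx5 summits.

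Vcan carried the most Pitx1 summits of the set and no Tbx5 summit. It is 87.7 kb long (chromosome 13, 89655309 to 89743027, minus strand) and has a domain of 162 kb. At least 17 Pitx1 summits were assigned to 413 of all genes, or 1.89%, whose median domain was 389 kb. Of the 413, Vcan included, 23 had a domain no longer than that of Vcan. Among genes with a domain within 20% of its length, the median was 2 Pitx1 summits and 1.85% had as many as 17. Tbx5 summits were assigned to 397 of the 413 genes, with a median of 5 over all 413. Vcan was among the other 16, which had none. Among genes with a domain within 20% of its length, 64.5% had no Tbx5 summit either.

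Most of the Pitx1 sites of Vcan lay in the body of the gene. Inside it were 14 of the 17, and 3 lay outside it on the side of its start, toward Xrcc4. The strongest had a score of 54.4, rank 3139 of the list, and lay at position 89696532, 46.0 kb downstream of the start site. Scores of 49.2 at position 89726683, 15.8 kb downstream, and 43.2 at position 89708359, 34.2 kb downstream, followed. These 3 and 5 more summits of the gene were in the second Pitx1 list. The stretch from 30 to 50 kb downstream of the start held 5 summits, of which 4 were in the second list. Neighbouring summits were between 0.675 and 26.7 kb apart, with a median of 4.67 kb.

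Around the start site of Vcan the Pitx1 scores were below those of its strongest sites. The summits nearest to it lay 268 bp downstream with a score of 7.67 and 407 bp upstream with a score of 4.32. Neither fell in the 250 bases before the start, and neither was in the second list. Farther upstream, a summit 5.67 kb away scored 17.4 and was in the second list. The promoter windows of Vcan and of Acan, which has no summit, are shown here as the pair of proteoglycan genes at the extremes of the set. They are the 250 bases before the RefSeq start site on GRCm38.p6, the assembly that mm10 represents, at chr13:89742513-89742762 (minus strand) and chr7:79052976-79053225 (plus strand). Both are in lower case throughout because neither holds, on either strand, a match to the Pitx1-type or T-box motifs that were searched.
Vcan: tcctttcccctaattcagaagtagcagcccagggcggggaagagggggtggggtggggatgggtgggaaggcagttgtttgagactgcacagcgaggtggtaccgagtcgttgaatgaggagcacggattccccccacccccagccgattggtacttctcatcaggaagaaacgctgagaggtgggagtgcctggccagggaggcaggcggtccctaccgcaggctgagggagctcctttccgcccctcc
Acan: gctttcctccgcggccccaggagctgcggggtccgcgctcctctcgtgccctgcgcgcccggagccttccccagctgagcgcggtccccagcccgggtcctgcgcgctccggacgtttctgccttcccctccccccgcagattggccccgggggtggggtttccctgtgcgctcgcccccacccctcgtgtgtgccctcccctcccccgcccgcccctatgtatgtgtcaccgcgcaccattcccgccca

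Tbx5 came closest to Vcan at a site beyond the edge of its domain. A Tbx5 summit with a score of 45.7 lay 55.3 kb upstream of the Vcan start site at position 89797808, which is 54.8 kb from Vcan and 51.1 kb from Xrcc4. It was assigned to Xrcc4, a DNA repair gene, because that is the nearer of the pair. A Pitx1 summit with a score of 4.32 lay 233 bp from it, just outside the 200 bp used to call summits shared.

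Hapln1, which encodes cartilage link protein, lies next to Vcan with 43.5 kb between them and showed few sites. It spans 71.3 kb (chromosome 13, 89540529 to 89611832, plus strand) and has the longest domain of the set, 193 kb. Its 2 Pitx1 summits were inside the gene, at positions 89543251 and 89609400, with scores of 2.89 and 3.35. The first lay 2.62 kb downstream of the start site and neither was in the second list. Of genes with a domain within 20% of its length, 64.3% had at least 2 Pitx1 summits. Within 50 kb of Hapln1 the count was also 2 whichever gene was nearest. Beyond that distance it rests on assignment to the nearest gene. A further 9 Pitx1 summits, with scores up to 54.4, lay 56.5 to 99.2 kb from Hapln1 but inside Vcan. The nearest Tbx5 summit to Hapln1 was the same site beyond Vcan, 186 kb away.

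**Figure D3:**
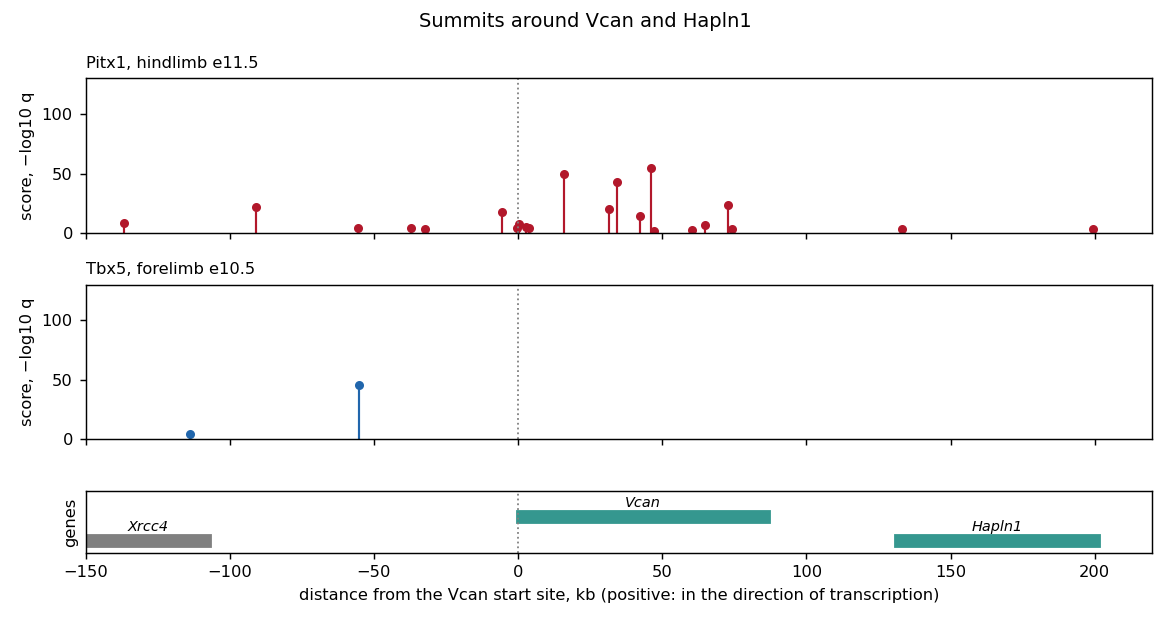
Summits of Pitx1 (top) and Tbx5 (middle) around Vcan and Hapln1, with the score in −log10 q on the vertical axis and the distance from the Vcan start site in kb on the horizontal axis, positive in the direction of transcription; bars at the bottom are protein-coding genes. The strong Pitx1 summits lie inside Vcan, up to a score of 54.4, while the Tbx5 summit with a score of 45.7 lies 55.3 kb upstream and Hapln1 holds 2 low Pitx1 summits.

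Acan and Snorc stood at the other end of the set, without a summit. Acan spans 61.9 kb (chromosome 7, 79053226 to 79115099) and has a domain of 129 kb, more than most members. Of genes with a domain within 20% of its length, 27.8% had no Pitx1 summit and 69.7% had no Tbx5 summit. The closest Pitx1 summit lay 15.1 kb past the end of Acan, with a score of 3.83, and was assigned to Hapln3, a link protein gene that is the neighbour of Acan with 1.93 kb between them. In all, 5 Pitx1 summits lay within 100 kb of Acan but nearer to another gene. The strongest of the 5 scored 20.5, lay 32.55 kb away inside Mfge8 and was in the second list. The closest Tbx5 summit lay 165 kb away with a score of 6.40 and was nearest to Aen.

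Snorc, which encodes a membrane proteoglycan of cartilage, has the shortest domain of the set, 15.7 kb (gene at chromosome 1, 87470201 to 87475482, between Gigyf2 and Ngef). Of genes with such a domain, 65.2% had no Pitx1 summit and 95.3% no Tbx5 summit. The surroundings were also empty, with no summit of either factor within 100 kb of the gene. The closest were a Pitx1 summit 159 kb away with a score of 2.45 and a Tbx5 summit 280.4 kb away with a score of 11.002. Peaks are numbered in genome order and some numbers are missing from the deposited lists. Between the summits that flank the domain, 2 Pitx1 numbers and 1 Tbx5 number were missing for Acan, and likewise 2 and 1 for Snorc. Whether the missing peaks lay inside the domains is not known from the lists.

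The matrilins are adaptor proteins that connect collagen fibrils and proteoglycans, and all 3 in the set had 3 Pitx1 summits and no Tbx5 summit. The domain of Matn3 is 29.7 kb and that of Matn4 32.2 kb, which gave 10.1 and 9.31 summits per 100 kb, close to the 10.47 of Vcan. Each of the pair rests on 3 summits in a short domain. With summits inside overlapping genes left out, Matn4 had 1 and Vcan still 17. Matn1, with a domain of 115 kb, had 2.60. Of genes with domains within 20% of these lengths, 5.51% had at least 3 Pitx1 summits for Matn3, 5.98% for Matn4 and 35.2% for Matn1. The shares with no Tbx5 summit were 92.0%, 91.3% and 72.6% in the same order, so most such genes had none either. Within 100 kb of Matn3, and likewise of Matn4, 3 Tbx5 summits were nearer to another gene.

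All 3 summits of Matn3 (chromosome 12, 8947929 to 8972028, plus strand) were inside the gene. The strongest, at position 8969954 and 22.0 kb downstream of the start site, scored 24.7. The others scored 3.83 at position 8961806 and 2.45 at position 8960657, and the upper 2 of the 3 were in the second list. Further sites lay close by at other genes. A Pitx1 summit with a score of 60.8 lay 26.5 kb from Matn3 inside Laptm4a, and a shared site lay 7.34 kb past the end of Matn3 inside Wdr35, where a Pitx1 summit scored 5.92 and a Tbx5 summit 122 bp away scored 17.0.

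The summits of Matn4 (chromosome 2, 164389393 to 164405160, minus strand) scored 35.4 at position 164403503, 23.0 at position 164386272 and 8.90 at position 164404329. All 3 were above the median of the list. The first lay 1315 bp and the last 489 bp downstream of the nearer of its 2 start sites. Both are also inside Rbpjl, a transcription factor gene that overlaps Matn4, and were counted for each of the pair. The strongest was in the second list.

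Matn1 (chromosome 4, 130944385 to 130955476, plus strand) had no summit inside it. A summit at position 130943660, 725 bp upstream of the start site, scored 3.35. A pair on the far side, 29.4 and 63.6 kb past its end, scored 3.83 and 8.28. The last was the farthest summit assigned to any member. Beyond 100 kb, in the long interval before Ptpru, 7 more Pitx1 summits were nearest to Matn1, the first at 105 kb with a score of 7.67. A Tbx5 summit there, 129.9 kb away, scored 5.23.

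Among the 6 members with a RefSeq start site, Matn4, Matn1 and Vcan had a Pitx1 summit within 1000 bp of it. The share of all genes with such a summit was not computed, so the count cannot be set against it. The 250-base windows of Matn4 and Matn1 are shown because of these summits. They lie at chr2:164404819-164405068 (minus strand, the start site nearer to the summit) and chr4:130944135-130944384 (plus strand). Capitals mark a match to AGGTGT, a T-box core sequence, here on the opposite strand.
Matn4: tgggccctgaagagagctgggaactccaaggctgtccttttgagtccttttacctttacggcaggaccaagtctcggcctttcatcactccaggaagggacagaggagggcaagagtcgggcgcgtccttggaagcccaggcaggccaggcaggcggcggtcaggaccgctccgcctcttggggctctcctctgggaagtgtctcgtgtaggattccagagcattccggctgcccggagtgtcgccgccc
Matn1: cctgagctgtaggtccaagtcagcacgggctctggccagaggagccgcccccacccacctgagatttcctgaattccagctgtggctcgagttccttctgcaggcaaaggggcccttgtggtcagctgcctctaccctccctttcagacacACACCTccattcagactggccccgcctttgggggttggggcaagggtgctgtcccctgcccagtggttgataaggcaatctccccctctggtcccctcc

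RefSeq start sites were given for 6 members, with 7 windows in all. The letters TAATCC and TAATCT, which bicoid-type homeodomain proteins such as Pitx1 are known to bind, and AGGTGT were searched on both strands. Neither of the first pair occurred in any of the 7 windows, against 11.6% of 21263 windows of protein-coding genes that held one or the other. AGGTGT occurred once, beginning 99 bases before the start site of Matn1 when read as ACACCT, against 11.03% of all windows. The nearest Tbx5 summit to that start site was 141 kb away. Such matches are descriptions of these letters in these windows.

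Comp, which encodes a pentameric protein that binds collagen in cartilage and tendon, had a single site. The gene (chromosome 8, 70373548 to 70382066) has a domain of 18.7 kb, closed in by Crtc1 at 0.286 kb. Its Pitx1 summit lay 571 bp outside it at position 70372977, inside Gm51533, a long non-coding RNA gene. With genes of every biotype allowed, it was not assigned to Comp. The score of 1.64 was the lowest of the set, with 0.0819% of the list below it. A shared site lay 30.3 kb from Comp inside Upf1, with a Pitx1 score of 4.32 and a Tbx5 score of 20.3 at summits 48 bp apart.

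Prg4, which encodes lubricin, the lubricant of joint surfaces, was one of the genes with both factors. It spans 16.8 kb (chromosome 1, 150449412 to 150466221) with a domain of 64.9 kb. The strand of Prg4 was not given, so its sides are named by chromosome coordinate. A Pitx1 summit at position 150480781, 14.6 kb above the higher coordinate of the gene, scored 34.5 and was in the second list. A Tbx5 summit 25 bp from it, at position 150480806, scored 11.002. The site is therefore shared and lies in the upper part of both lists, above 89.4% of Pitx1 and 59.4% of Tbx5 summits. A further Pitx1 summit 29.0 kb from the gene on the same side scored 5.37. A further Tbx5 summit inside the gene at position 150455405 scored 3.10. The inside summit was the only Tbx5 summit within the body of any member, or 1 of 3, 33.3% (exact interval 0.840 to 90.6). Of all Tbx5 summits within 100 kb of a gene, 60.5% lie inside one, and 3 summits are too few to show a difference. Of genes with a domain within 20% of its length, 3.01% had at least 2 Tbx5 summits. Gm41967, a long non-coding RNA gene, is nearer to the shared site than Prg4, at 6.31 kb from the Pitx1 summit.

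Scrg1, which encodes a small secreted protein also made by cartilage, held the strongest Tbx5 summit of the set. It spans 23.5 kb (chromosome 8, 57455882 to 57479360) with a domain of 90.8 kb. A Pitx1 summit at position 57405550 scored 47.2 and was in the second list. The Tbx5 summit, 73 bp from it at position 57405477, scored 115, rank 300 of 10273. The next highest of its 6 Pitx1 summits scored 19.7, 32.0 kb from the gene on the side of Hand2, and was in the second list as well. The other 4 scored between 2.89 and 6.49, the lowest of them 16 bp outside the gene.

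The shared site near Scrg1 lies in the long interval between Scrg1 and Hand2, a transcription factor gene of the posterior limb bud. The Pitx1 summit is 50.3 kb from Scrg1 and 81.03 kb from Hand2, so the assignment to Scrg1 rests on distance alone. It is also inside Gm34099, a long non-coding RNA gene. When genes of every biotype were allowed, neither this site nor the shared site of Prg4 was assigned to a member. On the other side of Scrg1, a Pitx1 summit with a score of 113 lay 32.4 kb from the gene. It was 0.086 kb from Hmgb2, which encodes a chromatin protein, and had no Tbx5 summit within 200 bp.

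**Figure D4:**
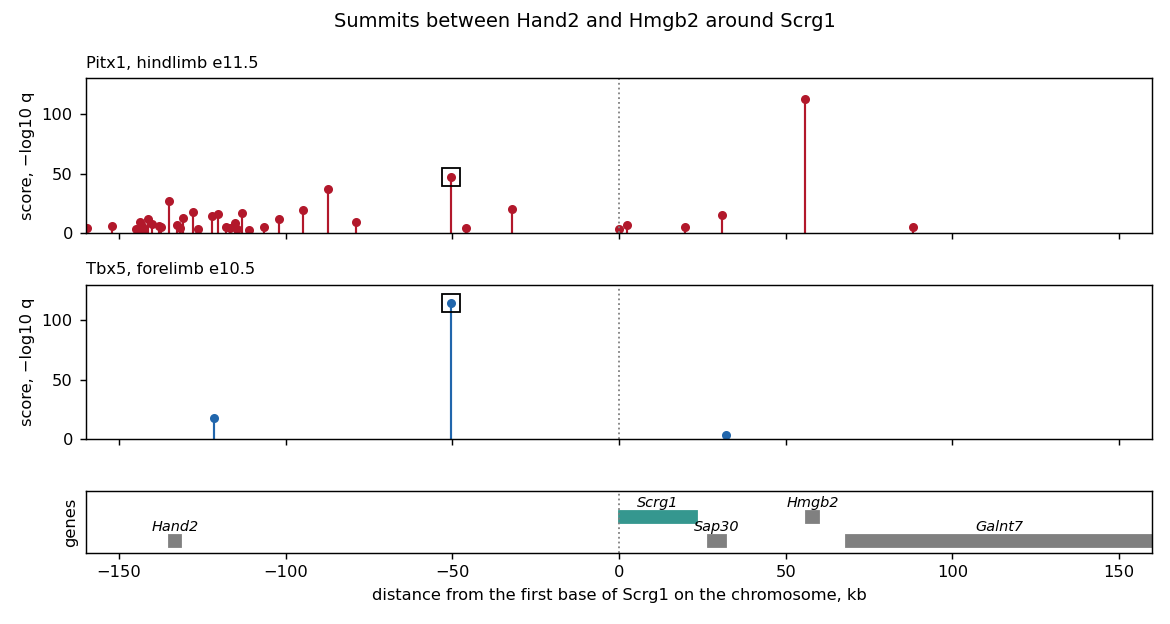
Summits of Pitx1 (top) and Tbx5 (middle) around Scrg1, with the score in −log10 q on the vertical axis and the distance in kb from the first base of Scrg1 on the chromosome on the horizontal axis; bars at the bottom are protein-coding genes and squares mark the shared site. The shared site lies about 50.3 kb from Scrg1 on the side of Hand2, with scores of 47.2 for Pitx1 and 115 for Tbx5. The Pitx1 summits are dense near Hand2.

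Sharing between the factors was limited to these 2 sites. Of the 37 Pitx1 summits 2 had a Tbx5 summit within 200 bp, or 5.41% (exact interval 0.661 to 18.2), against 7.39% of the whole Pitx1 list. Of the 3 Tbx5 summits 2 were shared, or 66.7% (9.43 to 99.2), against 39.5% of the whole Tbx5 list. These intervals include the values of the whole lists, but they cover the counting of summits only and both rest on the same 2 sites. They take summits as independent, although 17 of the 37 were at Vcan. The 3 Tbx5 summits are too few to show a difference. A shared Tbx5 summit was assigned to 8.85% of all genes.

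Related genes of cartilage were set beside the members as counts, with no test. The 7 cartilage collagens had 21 Pitx1 and 3 Tbx5 summits, or 3.19 and 0.456 per 100 kb of domain, and Col10a1, the collagen of hypertrophic cartilage, had none. Col2a1, which encodes the main cartilage collagen, had 8 Pitx1 summits and no Tbx5 summit. The regulators Sox9, Sox5 and Sox6 had 133 and 30 summits, or 6.49 and 1.46 per 100 kb, with 22, 59 and 52 Pitx1 summits. Of 13 other cartilage matrix genes, 9 had Pitx1 and 4 had Tbx5 summits, against 55.1% and 18.8% of all genes. Their densities were 4.02 and 0.693 per 100 kb, and Bgn, Chad, Cilp2 and Mia had none of either.

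The 10 paralogs of the members had 18 Pitx1 and 3 Tbx5 summits, or 2.78 and 0.463 per 100 kb. Among them, Ncan and Hapln4, a proteoglycan and a link protein gene of the nervous system, had none. The 10 genes of proteoglycan and hyaluronan turnover, Cd44 among them, each held Pitx1 summits, and 6 of them Tbx5 summits, at 3.96 and 0.726 per 100 kb. Of all genes 55.1% had Pitx1 and 18.8% Tbx5 summits, but shares are not matched for length. The median domain was 149 kb in this list and 45.8 kb for all genes. Adamts9, a protease that cleaves versican, held 12 Pitx1 and 2 Tbx5 summits, and Adamts20, of the same family, 10 and 4. The 8 genes of chondroitin sulfate synthesis had 2.60 and 0.267 per 100 kb, with 11 and 2 summits at Chst11, a sulfotransferase, and none at Xylt2. Dcn, Col9a1, Xylt1 and Adamts15 also held 2 Tbx5 summits each, and the related genes with more than 1 are all named here. In every list the Pitx1 density was above the 2.37 of all genes. For Tbx5 the members and the chondroitin sulfate genes were below the 0.414 of all genes and the other 5 lists above it.

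**Figure D5:**
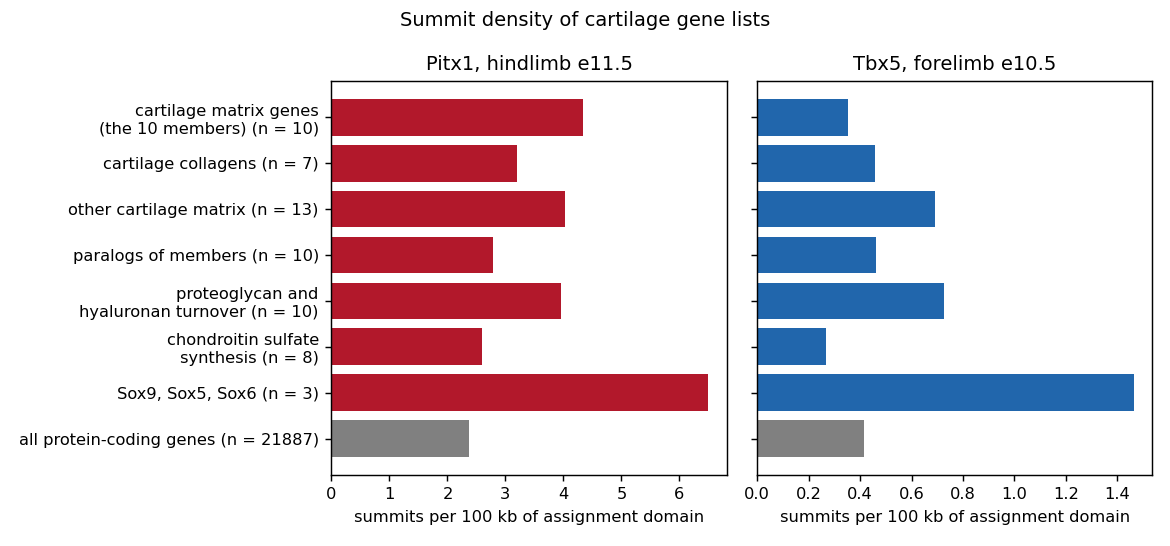
Summits per 100 kb of assignment domain (horizontal bars from 0) for the 10 cartilage matrix genes, 6 related lists and all protein-coding genes (grey), with Pitx1 on the left and Tbx5 on the right. The members reach 4.34 for Pitx1 and 0.352 for Tbx5, and the trio Sox9, Sox5 and Sox6 is highest for both, at 6.49 and 1.46.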

How the data were processed

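The authors deposited summit lists on mm10 for 2 of the 18 samples; the other 16 are not analysed here. Per the submitters' processing notes, HOMER, MACS2 2.1.1.20160309, Bowtie2 2.2.6 and Bowtie 1.1.2 were used, with no role given. The deposited score was read as the −log10 of the q-value, which MACS2 writes to summit files: peak names contain macs2 and the lowest scores, 1.31 and 1.42, lie above 1.30, the −log10 of 0.05. The second Pitx1 list carries a further deposited score and a pair of signed distances, none of them explained, that were not used. Not given in the sources used here are the control library, filters, read numbers and any pooling.

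Summits were assigned to the nearest protein-coding gene within 100 kb (RefSeq table of GRCm38.p6, mitochondrial genes left out), counting a summit inside overlapping genes for each. A domain splits each gap between genes at its middle. Summits of the factors within 200 bp were called shared. Start sites came from RefSeq promoter windows. Assignment, sharing and domains were tested on simulated data against exhaustive search. Python 3.11.15, pandas 2.3.3, numpy 2.4.6 and scipy 1.17.1 were used. The members, the related lists and the rule for named genes (all 10 members, the related genes with the most summits and those with none) were chosen with earlier results of these data known. Col2a1 was named after their values were seen. Alternatives covered assignment distance and biotype, score limits, list length, the second list and the sharing distance.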

Additional observations from a re-analysis of the deposited data

How the results depend on the processing

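With 1 sample per factor, counts moved only with the rules of assignment and the list. Counting every protein-coding gene within 100 kb gave 96 pairs of a Pitx1 summit and a member, against 37, with 34 of the pairs in the second list. These are not 96 separate summits. The 9 summits inside Vcan that lay within 100 kb of Hapln1 were counted for both genes, as was a summit inside Hapln1. The same rule gave 14 Tbx5 summits at 6 members, 7 of them shared. Of all genes 48.2% had a Tbx5 summit under this rule. Assignment within 20 or 50 kb left Tbx5 summits at 1 member and 1 shared. With the nearest gene of any biotype 1 Tbx5 summit remained, at 1 member, and 0 were shared. Scores at or above the list median left 16 Pitx1 summits. A Pitx1 list as short as the Tbx5 list left 10 at 5 members, 8 of them in the second list, and the second list left 14 at 5 members. The shares of all genes under these shorter lists were not computed, so the 5 members cannot be set against them. Without Vcan, an alternative chosen after seeing the data, 20 Pitx1 summits remained, 6 in the second list. The other 43 values over the set stayed within 1.5 times, including those with tied summits left out and with sharing distances of 100, 500 and 1000 bp. Among them, members with a Pitx1 summit fell from 8 to 6 with any biotype, where 26 Pitx1 summits remained. The fall was also to 6 with scores at or above the list median. Of the counts for single genes, 49 moved by more than 1.5 times, or to or from 0, and 149 did not. Matn4 had 1 Pitx1 summit with tied summits left out, against 3. Ranges of Pitx1 summits, main run included, were 5 to 20 at Vcan, 1 to 15 at Matn3 and 1 to 12 at Scrg1. They were 1 to 9 at Matn4, 0 to 11 at Hapln1, 0 to 10 at Matn1, 0 to 8 at Prg4 and 0 to 7 at Comp. Snorc had 0 summits of both factors and Acan 0 Tbx5 summits in each alternative run, while Acan had up to 5 Pitx1 summits. Depth is unknown, so a gene without a summit may hold sites too weak to be called. No paired analysis was possible because each factor has 1 sample and the labels give no shared replicate numbers.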
